A study of Homo sapiens with 4 samples.

Results

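The genes described here encode the initiation and elongation factors of cytosolic translation, with the enzymes and binding proteins that carry the same gene names. They were taken as all protein-coding rows of the count tables whose symbol begins with EIF1 to EIF6 or with EEF1 or EEF2, leaving out EIF1AY. This rule found 67 of the 58243 genes listed. SH-SY5Y, a long-established neuroblastoma cell line of human origin, was used throughout. The control group was 2 libraries of untreated cells, and the SNP group was 2 libraries of cells kept for 8 h with sodium nitroprusside (SNP), a nitric oxide donor. The labels describe the SNP group as an oxidized state, give no dose for the sequenced cells and mention differentiation with retinoic acid without saying whether these libraries had it. They do not say that the libraries of a group came from separate cultures, so the p-values measure the spread between libraries, which may be technical. In bulk RNA, a change in RNA per cell and a change in the cells present cannot be told apart.

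Translation of an mRNA begins when eIF2 carries the initiator tRNA to the small ribosomal subunit, together with eIF1, eIF1A, eIF3 and eIF5. The eIF4 factors bind the cap, unwind the 5′ end and bring the mRNA, and eIF5B then joins the large subunit, which eIF6 otherwise keeps apart. Elongation uses eEF1A to deliver aminoacyl-tRNAs, the eEF1B subunits to recharge eEF1A with GTP, and eEF2 to move the ribosome along. Stress kinases that phosphorylate eIF2, and the eIF4E-binding proteins controlled by mTORC1, are the usual points at which cells lower initiation. Messages of the elongation factors and of ribosomal proteins belong to the class with a terminal oligopyrimidine (TOP) tract, a C at the cap followed by a run of pyrimidines, which couples their translation to mTORC1.

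The start sites of these genes are shown because the TOP tract of several elongation factor messages, and its absence from the annotated starts of EIF5B, EIF3J and EIF6, can be read from them. RefSeq promoters (GRCh38.p14) were found for 53 of the 67 genes. Each line below gives 10 bases before and 20 bases from the annotated first base, 5′ to 3′ on the transcribed strand. Capitals mark the first transcribed base and, where that base is C, the unbroken run of C and T that it opens.
EEF1A1 (chr6:73521013-73521042, minus strand): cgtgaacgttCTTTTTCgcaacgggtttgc
EEF2 (chr19:3985444-3985473, minus strand): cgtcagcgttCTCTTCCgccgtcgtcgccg
EEF1B2 (chr2:206159885-206159914, plus strand): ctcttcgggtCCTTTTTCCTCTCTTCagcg
EEF1G (chr11:62573872-62573901, minus strand): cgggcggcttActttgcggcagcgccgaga
EIF4B (chr12:53006446-53006475, plus strand): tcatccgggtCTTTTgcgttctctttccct
EIF4A2 (chr3:186783567-186783596, plus strand): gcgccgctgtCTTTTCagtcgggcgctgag
EIF2S3 (chrX:24054946-24054975, plus strand): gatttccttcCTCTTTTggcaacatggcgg
EIF3F (chr11:7987327-7987356, plus strand): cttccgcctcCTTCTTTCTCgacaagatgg
EIF4A1 (chr17:7572815-7572844, plus strand): ggcactccgcCCTagtttctaaggatcatg
EIF5B (chr2:99337379-99337408, plus strand): ctgagaactcAcaccatatgtgtcctgttc
EIF3J (chr15:44537137-44537166, plus strand): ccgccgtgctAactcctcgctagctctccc
EIF6 (chr20:35284698-35284727, minus strand; 1 of 2 annotated starts): tggtaagctgGtgtgaggggaacctgggag

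The pattern searched was a C at the first transcribed base followed by 4 bases that are each C or T, at that position and on the transcribed strand alone. It was present at a start of 12 of the 53 genes (22.6%), against 7.33% of the 10416 tested genes with a promoter and 69.1% of 68 ribosomal protein genes. The 53 include genes too weakly counted to be tested. Over all 27305 gene symbols with a promoter, tested or not, the share was 5.14%. It was found in EEF1A1, EEF2 and 1 of the 2 annotated starts of EEF1B2, and not at the annotated first base of EEF1G. A match describes letters at an annotated start and shows no use of that start in these cells.

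Expression was compared on read counts per gene with edgeR's quasi-likelihood test, and a gene was called at an adjusted p-value under 0.05 (Benjamini-Hochberg over the 14759 genes tested). Normalised levels are given as CPM, counts per 1000000 after TMM scaling, and changes as log2 of SNP over control. The libraries held 5613144 to 8056550 counts, and 3 counts correspond to 0.372 to 0.534 CPM. Of 10 markers of adrenergic neuroblastoma, 9 had more than 3 counts in every library and TH was listed at 0 in all 4; the list summed to 2370 and 2445 CPM in control and 1922 and 2072 CPM in SNP libraries. Markers of blood cells summed to between 0.533 and 1.30 CPM, with PTPRC and CD3E at 0. Fibroblast markers summed to 36.6 to 42.4 CPM in control and 61.6 to 62.4 CPM in SNP libraries. The part of these marker differences in the results below was not tested.

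Initiation factors moved in both directions after SNP, and the abundant elongation factors did not pass the threshold. Of the 67 genes, 63 had enough counts to be tested; 13 were higher in SNP, 9 were lower and 41 were not called. The largest rises were in EIF5B, EIF3J, EIF3A and EIF4A2, between 1.68-fold and 2.22-fold, and the largest falls were in EIF6 and EIF4EBP1, to 0.536 and 0.610 of control. The 22 calls are 34.9% of the genes tested, where 26.2% of all genes tested were called, 13.6% higher and 12.6% lower. The 2 groups did not overlap for 40 of the 63 (63.5%), close to the 64.0% over all genes (31.7% with SNP above and 32.3% with SNP below). The median change was 0.029 on the log2 scale, against -0.0042 for all genes, and single genes ranged from -0.90 to 1.15.

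**Figure D1:**
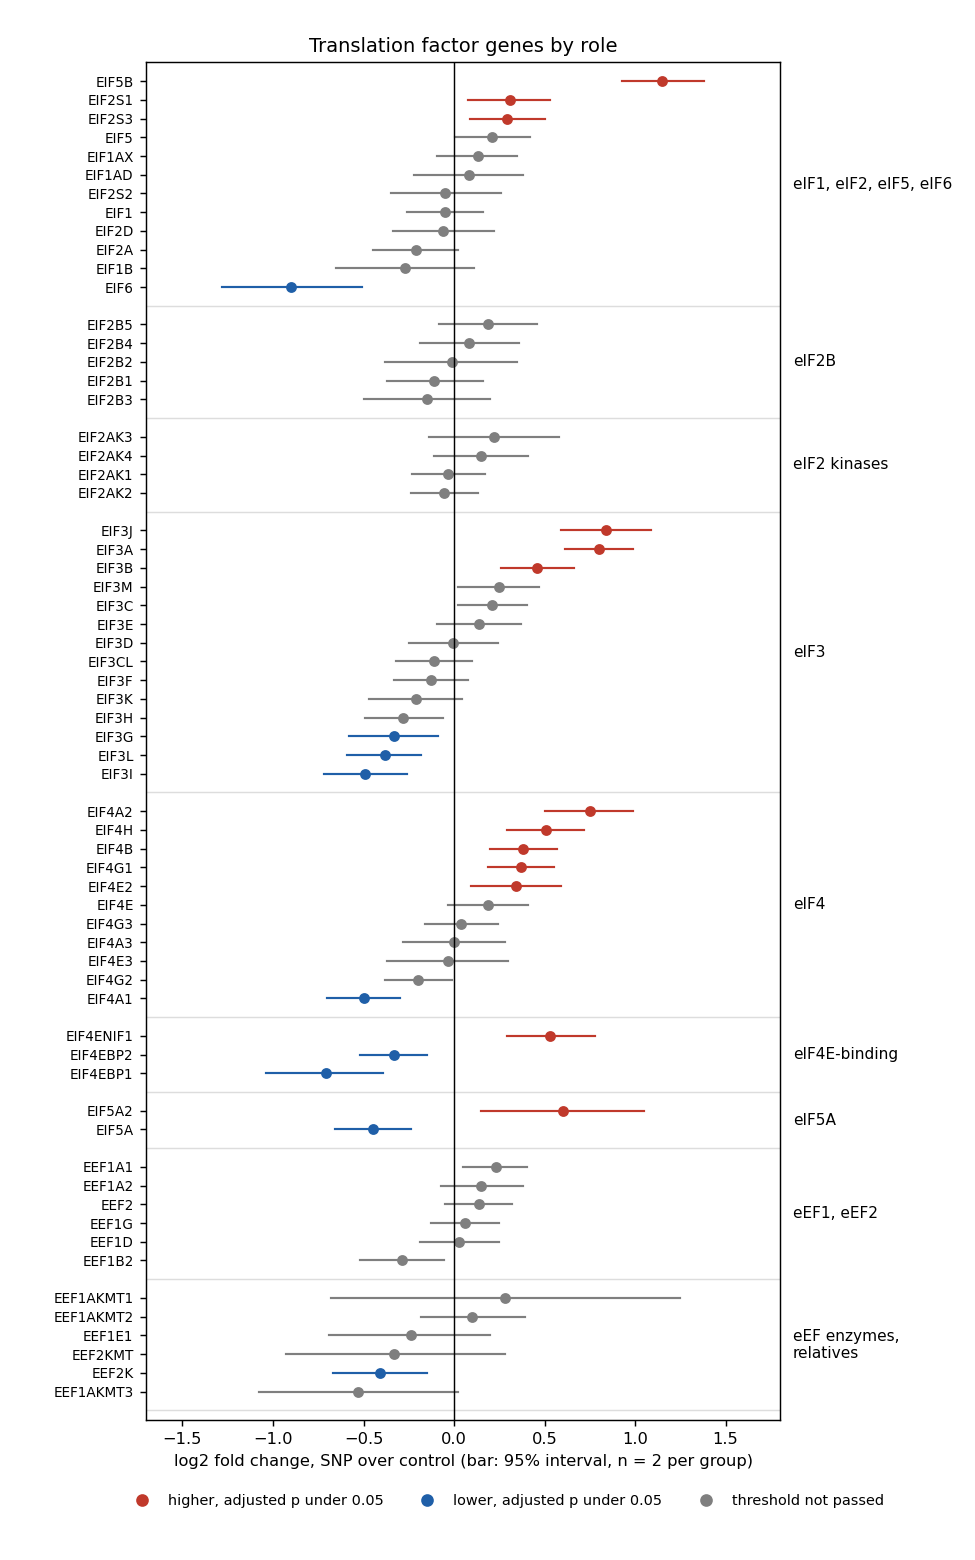
Log2 fold change of SNP over control for the 63 translation factor genes tested, ordered within each role; points are estimates of edgeR's fit and bars their 95% intervals (n = 2 libraries per group), red higher and blue lower at an adjusted p-value under 0.05, grey for genes that did not pass. EIF5B at 1.15 and EIF6 at -0.90 mark the ends, and no bar of the 6 eEF1 and eEF2 genes is coloured.

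EEF1A1, EEF2 and EEF1G were the 3 most abundant genes of the family. On the per-length TPM scale deposited by the authors, EEF1A1 stood at 3618 ± 435, EEF2 at 2534 ± 311 and EEF1G at 1522 ± 211 in control libraries (SD, n = 2), while EIF3L, the next in order, stood at 561 ± 73.2. EEF1A1 stood above EEF2 in every library. EEF1A2, EEF1B2 and EEF1D were far lower in TPM, at ranks 8, 12 and 38 of the 67 genes, with EEF1B2 at 375 ± 44.9 TPM. Such ranks depend on the length used for each gene, 9390 bases for EEF1D, 1915 for EEF1B2 and 2006 for EEF1A2. In CPM, EEF1D stood above EEF1B2 in control, at means of 172 and 153. EEF1A1, EEF1B2, EEF1G and EEF2 together made up 46.2% and 48.5% of the TPM of all 67 genes in control, and 49.1% and 49.9% under SNP. The groups did not overlap in that share, but the distance between the nearest libraries was smaller than that between the control libraries. TPM between groups is not a like measure here, since the median TPM ratio of all genes tested was 0.11 on the log2 scale.

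EEF1A1 delivers aminoacyl-tRNAs to the ribosome. It was measured at 4226 and 4917 CPM in control and at 5694 and 5008 CPM under SNP, so the groups were adjacent without overlapping. The log2 fold change was 0.23 (95% interval 0.051 to 0.40), which missed the threshold (adjusted p = 0.0522, edgeR). It passed in 5 of 16 alternatives, among them the fits without control b (adjusted p = 6.7e-05) and without SNP b (adjusted p = 0.0365, both edgeR), and was -0.078 after correction for transcript length and base composition. EEF2, the translocase, stood at 2000 and 2334 CPM in control and at 2225 and 2534 CPM in SNP libraries, with overlapping groups. Its log2 fold change was 0.14 (95% interval -0.050 to 0.32, adjusted p = 0.285 by edgeR), and 0.25 without control b, where it passed (adjusted p = 0.0339, edgeR).

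EEF1G and EEF1B2 encode the gamma and beta subunits of the exchange factor that recharges eEF1A. EEF1G was counted at 800 and 956 CPM in control and at 921 and 910 CPM in SNP, both SNP values inside the control range, with a log2 fold change of 0.061 (95% interval -0.13 to 0.25). Of its 2716 exonic bases, 2714 overlap the readthrough gene AP002990.1, which itself held 48 to 97 counts per library. EEF1B2 had 141 and 164 CPM in control against 134 and 115 CPM in SNP libraries, lower without overlap. Its log2 fold change of -0.29 (95% interval -0.52 to -0.055) did not pass (adjusted p = 0.0628, edgeR); it passed without SNP a (adjusted p = 0.0134, edgeR) and after the base composition correction, at -0.45. The TPM ratio of EEF1A1 to EEF1B2, like the other ratios between genes given below singled out after its values were seen, was 9.64 and 9.65 in control and 13.6 and 14 in SNP libraries.

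The other 2 elongation factor genes also stayed short of the threshold. EEF1A2, the eEF1A form of neurons and muscle, had 168 and 206 CPM in control and 198 and 217 CPM in SNP libraries, with overlapping groups. It supplied 10.5% and 11% of the eEF1A TPM in control and 9.33% and 11.4% in SNP libraries; the authors' length for it, implied by RPKM, was 2006 bases, whereas the annotation has 4910. EEF1D, the delta subunit, had a log2 fold change of 0.029 (95% interval -0.19 to 0.25). None of the 6 genes was called, where 26.2% of all genes tested were. Of the 59 factor genes tested other than EEF1A1, EEF1B2, EEF1G and EEF2, 22 were called (37.3%). The median over EEF1A1, EEF1B2, EEF1G and EEF2 was 0.10, against -0.0019 for those 59 genes. Without control a these medians were -0.021 and -0.012, without SNP b 0.057 and 0.060, and without control b 0.22 and 0.053, so the contrast rested on single libraries. With 4 genes that share 2 libraries per group this is a description, and a gene short of the threshold is not shown to be unchanged.

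**Figure D2:**
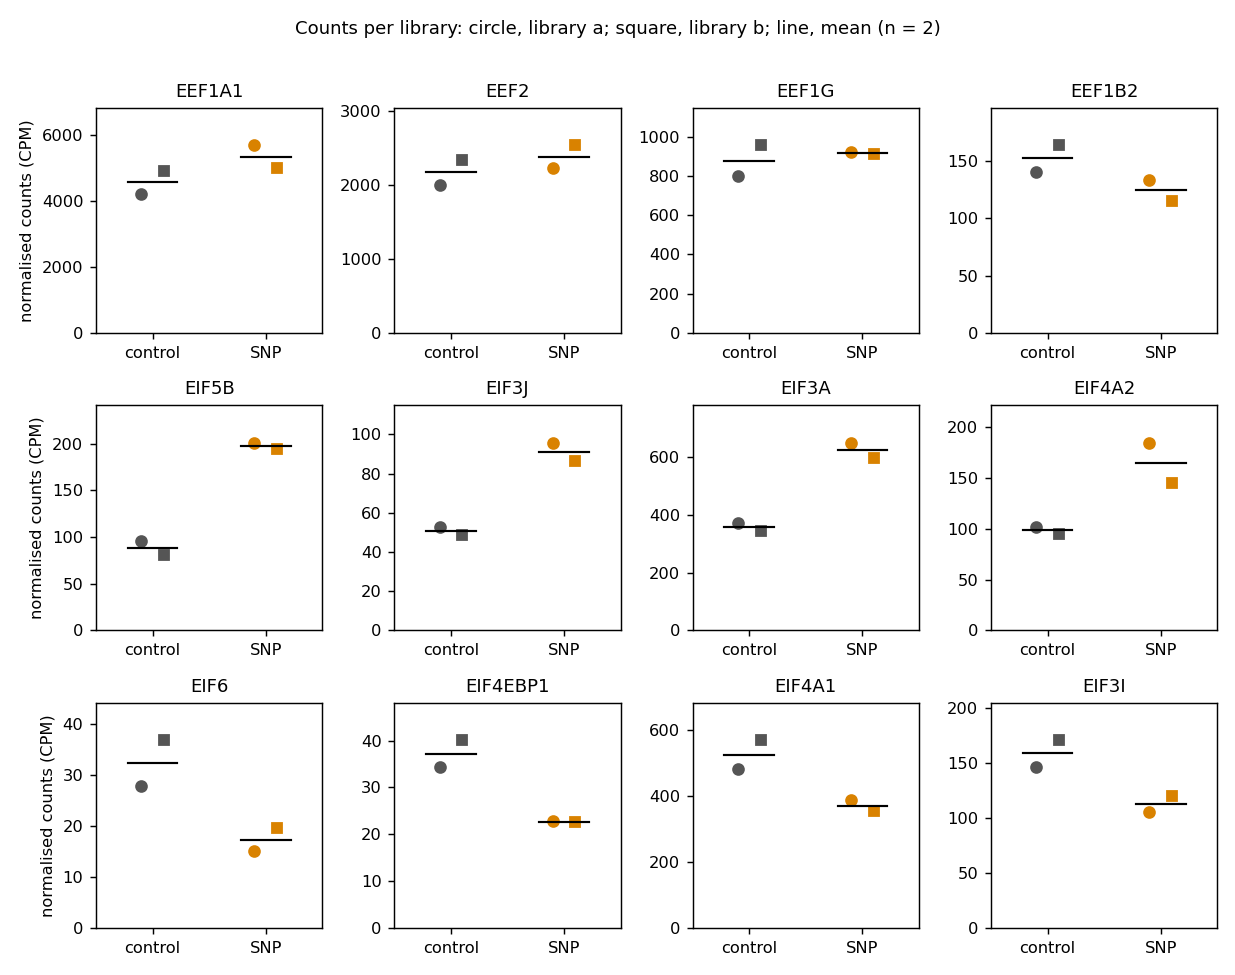
Normalised counts (CPM, linear axes from 0) in each library for 4 elongation factor genes (top row), the 4 largest rises among initiation factors (middle) and 4 falls (bottom); circles are libraries a, squares libraries b, lines group means (n = 2). The SNP libraries of EIF5B sit at 201 and 194 CPM above controls at 95.8 and 81.3, while those of EEF2 and EEF1G overlap the controls.

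Ribosomal protein messages are the other large TOP class. Of 83 ribosomal protein genes tested, 47 were lower and 8 higher, with a median of -0.42, where 12.6% of all genes were lower and 13.6% higher. Those with the start pattern, also 47 genes, had a median of -0.45, and the 21 with a promoter but no pattern -0.24. The 12 factor genes with the pattern had a median of 0.065: EIF4A2, EIF4B and EIF2S3 were higher and none was lower. The tested factor genes with a promoter and without the pattern had a median of 0.081, with 9 higher and 6 lower. Over all tested genes with a promoter, the 764 with the pattern had a median of -0.083, with 106 higher and 155 lower. The 9652 without it had a median of 0.0038, with 1392 higher and 1204 lower. Leaving out the factor and ribosomal protein genes, the 705 with the pattern had a median of -0.063, with 100 higher and 125 lower, and the 9595 without it 0.0041. Among proteins of known TOP messages outside the family, RACK1, a ribosome-bound scaffold, fell by 0.66 on the log2 scale, TPT1 by 0.42 and FAU by 0.57. HNRNPA1 and NAP1L1 of the same list rose by 1.12 and 0.36, and the list as a whole had 2 of 8 higher and 4 lower. The difference between these sets of genes was not tested.

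Of 6 genes for enzymes that act on elongation factors, or for relatives by name, 1 was called (16.7%). Over all genes tested, 26.2% were called. EEF2K, which phosphorylates and stops eEF2, fell from 68.0 and 81.1 CPM to 57.8 and 54.3 CPM, a log2 fold change of -0.41 (SE 0.125, adjusted p = 0.0190 by edgeR). Its call was lost without control b (adjusted p = 0.326), with DESeq2's Wald test and with the composition correction, at -0.22. The methyltransferase genes EEF1AKMT1, EEF1AKMT2, EEF1AKMT3 and EEF2KMT had log2 fold changes of 0.28, 0.10, -0.53 and -0.33 and were not called. EEF1E1, a component of the multi-synthetase complex despite its name, stood at -0.24 and was not called either.

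Among factors that build the 43S complex and join the subunits, the late-acting pair moved apart. EIF5B, the GTPase of subunit joining, was measured at 95.8 and 81.3 CPM in control and at 201 and 194 CPM in SNP libraries. The groups lay far apart, and the log2 fold change of 1.15 (SE 0.109) had an adjusted p-value of 2.7e-07 in edgeR's test. EIF6, which binds the large subunit and prevents premature joining, went the other way, with 27.9 and 36.9 CPM in control against 15.1 and 19.6 CPM in SNP libraries. Its log2 fold change was -0.90 (SE 0.186, adjusted p = 0.0012 by edgeR), on 120 to 208 counts per library. The TPM ratio of EIF5B to EIF6 was 0.712 and 0.457 in control and 2.76 and 2.06 in SNP libraries. EIF5B shares 852 of 7883 exonic bases with REV1, which was not called (log2 fold change 0.20), and EIF6 shares 284 of 1631 with AL121753.1, which had 3 to 15 counts per library.

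The subunits of eIF2, the carrier of initiator tRNA, were mixed. EIF2S3, the gamma subunit, had 314 and 352 CPM in control and 439 and 377 CPM in SNP libraries, and EIF2S1, the alpha subunit that the stress kinases phosphorylate, had 105 and 121 against 147 and 133 CPM. Both rose, by log2 fold changes of 0.29 and 0.31 (adjusted p = 0.0327 and 0.0433, edgeR). The beta subunit EIF2S2 stood at -0.049 with overlapping groups. Neither rise passed without control a, without SNP a or with library totals implied by RPKM, and EIF2S1 also missed the threshold without control b and with DESeq2's Wald test. After the base composition correction EIF2S1 was -0.12 and not called, a change of direction, while EIF2S3 kept its call at 0.25. EIF1, EIF1B, EIF1AX, EIF2A, EIF2D and EIF5, which act in scanning, start selection and tRNA delivery, lay between -0.27 and 0.21 and were not called. EIF1AD, placed with them by its name, was not called at 0.081.

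None of the 5 eIF2B subunit genes and none of the 4 eIF2 alpha kinase genes was called, where 26.2% of all genes tested were. The eIF2B subunits, which reload eIF2 with GTP, lay between -0.15 for EIF2B3 and 0.19 for EIF2B5. Of the eIF2 alpha kinases, EIF2AK2 (PKR, activated by double-stranded RNA) had 458 and 446 CPM in control and 435 and 437 CPM in SNP libraries. EIF2AK1 (HRI, the kinase regulated by heme) had 229 and 225 CPM against 231 and 213 CPM. Their log2 fold changes were -0.054 (95% interval -0.24 to 0.13) and -0.035 (95% interval -0.23 to 0.17). These intervals, drawn from the spread between libraries, stayed below the 1.68-fold rise of EIF4A2, a yardstick taken after the results. After the base composition correction EIF2AK2 was called lower, at -0.24 (adjusted p = 0.0202, edgeR), and EIF4A2 was 0.091 and not called. EIF2AK3 (PERK, of the endoplasmic reticulum) and EIF2AK4 (GCN2, activated by uncharged tRNA) stood at 0.22 and 0.15, and the interval of EIF2AK3, the least counted of the 4 at 110 to 199 counts, reached 0.58. Of their opponents, the phosphatase subunits PPP1R15A and PPP1R15B rose by 0.87 and 0.27 on the log2 scale (adjusted p = 0.0037 and 0.0479, edgeR). Of the catalytic subunits, PPP1CA fell by 0.65, at 35.6 to 68.4 CPM. PPP1CB and PPP1CC, which had more counts, were not called at -0.047 and -0.024.

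The eIF3 complex, the largest initiation factor, was divided: 3 of its 14 genes were higher and 3 lower, where 13.6% and 12.6% of all genes were. EIF3A, the scaffold subunit, was measured at 373 and 345 CPM in control and at 650 and 597 CPM in SNP libraries, a log2 fold change of 0.80 (SE 0.0919, adjusted p = 3.0e-06 by edgeR). EIF3J, the loosely bound subunit, went from 52.7 and 48.8 to 95.7 and 86.2 CPM, a log2 fold change of 0.84 (SE 0.120, adjusted p = 3.7e-05 by edgeR). EIF3B rose less, from 216 and 231 to 312 and 304 CPM. For all 3 genes the SNP libraries lay clear of the control libraries. After correction for transcript length and base composition EIF3J kept its call at 0.47, whereas EIF3A (0.15, adjusted p = 0.120, edgeR) and EIF3B (0.0032, adjusted p = 0.981) did not pass.

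EIF3I and EIF3G, which sit with EIF3B in the module near the mRNA channel, were lower. EIF3I went from 147 and 171 CPM to 106 and 120 CPM (log2 fold change -0.49, adjusted p = 0.0024 by edgeR), EIF3G from 75.4 and 82.4 to 60.7 and 64.6 CPM (-0.33, adjusted p = 0.0412). EIF3L, of the outer octamer, went from 469 and 554 to 376 and 408 CPM (-0.38, adjusted p = 0.0058). Without control b none of these 3 falls passed, at adjusted p-values of edgeR's test of 0.0839 for EIF3I and 0.160 for EIF3L. EIF3G also missed the threshold without control a, without SNP a and with DESeq2's Wald test, and EIF3L did so after the base composition correction, at -0.13 (adjusted p = 0.306, edgeR). The TPM ratio of EIF3A to EIF3I was 0.617 and 0.491 in control and 1.49 and 1.21 in SNP libraries. The other 8 subunit genes, EIF3C, EIF3CL, EIF3D, EIF3E, EIF3F, EIF3H, EIF3K and EIF3M, lay between -0.28 and 0.25 and were not called; EIF3C and EIF3CL are almost the same in sequence, so the division of reads among them is uncertain.

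Cap-binding and helicase factors of the eIF4 group gave 5 higher, 1 lower and 5 not called of 11 tested genes. Among all genes tested, 13.6% were higher and 12.6% lower. EIF4G1, the scaffold of the cap complex, was measured at 424 and 420 CPM in control and at 548 and 542 CPM in SNP libraries. Its log2 fold change of 0.37 (SE 0.0878, adjusted p = 0.0036 by edgeR) was 0.36 after the base composition correction, and it passed without each library in turn. EIF4B and EIF4H, which stimulate the helicase, rose by 0.38 and 0.51, and EIF4E2, a cap-binding relative of EIF4E linked to repression, by 0.34. After that correction EIF4H kept its call at 0.27, whereas EIF4B (0.14) and EIF4E2 (0.022) did not pass. EIF4E2 also missed the threshold with DESeq2's Wald test and without control a, control b or SNP a. EIF4E itself, the cap-binding protein, had 95 and 99.2 CPM in control and 113 and 108 CPM in SNP libraries and was not called (0.19, 95% interval -0.036 to 0.41). EIF4G2, EIF4G3, EIF4E3 and EIF4A3, the last a part of the exon junction complex, lay between -0.20 and 0.038 and were not called.

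The 2 eIF4A helicases changed in opposite directions. EIF4A1 fell from 481 and 569 CPM to 389 and 353 CPM, a log2 fold change of -0.50 (SE 0.0984, adjusted p = 7.6e-04 by edgeR). EIF4A2 rose from 102 and 95.2 CPM to 185 and 145 CPM, a log2 fold change of 0.75 (SE 0.118, adjusted p = 9.2e-05). After the base composition correction EIF4A1 kept its call at -0.62 and EIF4A2 did not pass, at 0.091 (adjusted p = 0.463, edgeR). In TPM, which carry no such correction, EIF4A2 made up 14.2% and 11.6% of the eIF4A sum in control and 27.1% and 24.4% in SNP libraries. Of the exonic bases of EIF4A1, 2583 of 5316 overlap other genes, among them the readthrough SENP3-EIF4A1 with 79 to 173 counts per library. For EIF4A2, 1099 of 6133 bases do. The counts of both genes carry that uncertainty, and the strand used in counting is not given in the sources used here. Of the 40 factor genes tested with such overlap 15 were called (37.5%), and of the 23 without it 7 (30.4%). Over all genes tested the share was 26.2%.

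**Figure D3:**
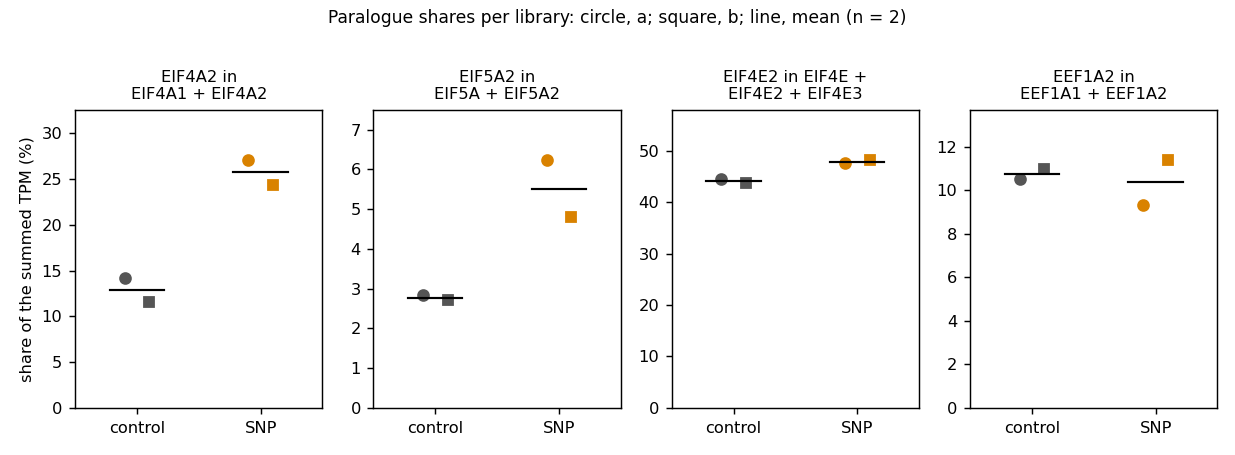
Share of the second paralogue in the summed TPM of its family, per library (linear axes from 0; circles a, squares b, lines means, n = 2 per group). EIF4A2 and EIF5A2 take larger shares in both SNP libraries, EIF4E2 a slightly larger one, and EEF1A2 overlaps between groups.

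The eIF5A genes, for the hypusine-bearing factor that helps ribosomes through difficult stretches, also differed in direction. EIF5A fell from 215 and 215 CPM to 167 and 149 CPM (log2 fold change -0.45, adjusted p = 0.0023 by edgeR). EIF5A2, its rare paralogue, had 12.5 and 11.9 CPM in control and 22 and 14.9 CPM in SNP libraries and just passed (0.60, SE 0.218, adjusted p = 0.0466). SNP b lay near the controls, and the log2 fold change was 0.29 without SNP a. The call was lost in 10 of 16 alternatives. Among them were DESeq2's Wald test (adjusted p = 0.169), limma-voom (adjusted p = 0.0707) and the base composition correction (adjusted p = 0.0811, edgeR). EIF5A2 held 2.84% and 2.71% of the eIF5A TPM in control and 6.24% and 4.80% in SNP libraries. DOHH, which completes hypusine, rose by 1.09 on the log2 scale at 2.93 to 7.13 CPM, and DHPS, which starts it, was not called at -0.18.

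Of 3 genes tested for proteins that bind eIF4E, the repressors EIF4EBP1 and EIF4EBP2 were lower and EIF4ENIF1 was higher. Among all genes tested, 12.6% were lower and 13.6% higher. EIF4EBP1 fell from 34.4 and 40.1 CPM to 22.8 and 22.6 CPM, a log2 fold change of -0.71 (SE 0.157, adjusted p = 0.0020 by edgeR), and EIF4EBP2, the more abundant form per length in TPM, from 469 and 446 to 362 and 364 CPM (-0.33, adjusted p = 0.0086). The summed TPM of both relative to EIF4E was 14.3 and 14 in control and 8.87 and 9.25 in SNP libraries. EIF4ENIF1, the transporter that takes eIF4E to the nucleus and to P-bodies, rose from 52.3 and 55.2 to 79.3 and 76.2 CPM (0.53, adjusted p = 0.0022). EIF4EBP2 did not pass without control a (adjusted p = 0.0976), and EIF4ENIF1 missed it narrowly there (adjusted p = 0.0508, edgeR). Neither EIF4EBP gene passed after the base composition correction, whereas EIF4ENIF1 did, at 0.62.

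A further 4 genes were too weakly counted to be tested. EIF4E1B, a germ-line cap-binding form, was listed at 0 in every library. EIF5AL1 had 2 to 6 counts. EIF4EBP3 had 8 counts in control b, 7 in SNP b and 0 in both a libraries, and shares 507 of its 691 exonic bases with ANKHD1-EIF4EBP3. The readthrough EEF1E1-BLOC1S5 had 17 counts in SNP a and 0 elsewhere. Pseudogenes, processed or not, took few reads. The 136 pseudogene rows with names of this family held 518 counts in all, or 0.101% of the family's counts. Among them, 39 EEF1A1 pseudogenes held 111 counts beside 138951 for EEF1A1. The most counted row was EEF1DP3, an unprocessed pseudogene, at 48 to 98 counts per library. EEF1DP3 was called lower, with a log2 fold change of -1.10 (adjusted p = 0.0023, edgeR).

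Changes among the factors followed the base composition of their transcripts, as did those of all genes. Composition is the guanine minus cytosine share, in percentage points, over the annotated transcripts of a gene. Across the 63 factor genes, which share the same 4 libraries, Spearman's rho between this measure and the log2 fold change was 0.560, and across 14724 genes it was 0.480. All genes tested were divided by the measure into 3 bands of 4908 genes. Of the 30 factors in the highest band 9 were higher and 2 lower, and of the 10 in the lowest band none was higher and 4 were lower; over all genes these bands had 28.4% and 3.4% higher and 2.73% and 26.5% lower. EIF3A and EIF4A2, at 7.36 and 6.96 points, were above percentile 98 of all genes in this measure (98.6 and 98.2). The lower genes of the highest band were EIF6 and EIF4A1, at 3.37 and 2.12 points, and EIF4ENIF1 rose at -0.12 points. Between replicates the same rho was -0.194 for control b over a and -0.305 for SNP b over a.

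**Figure D4:**
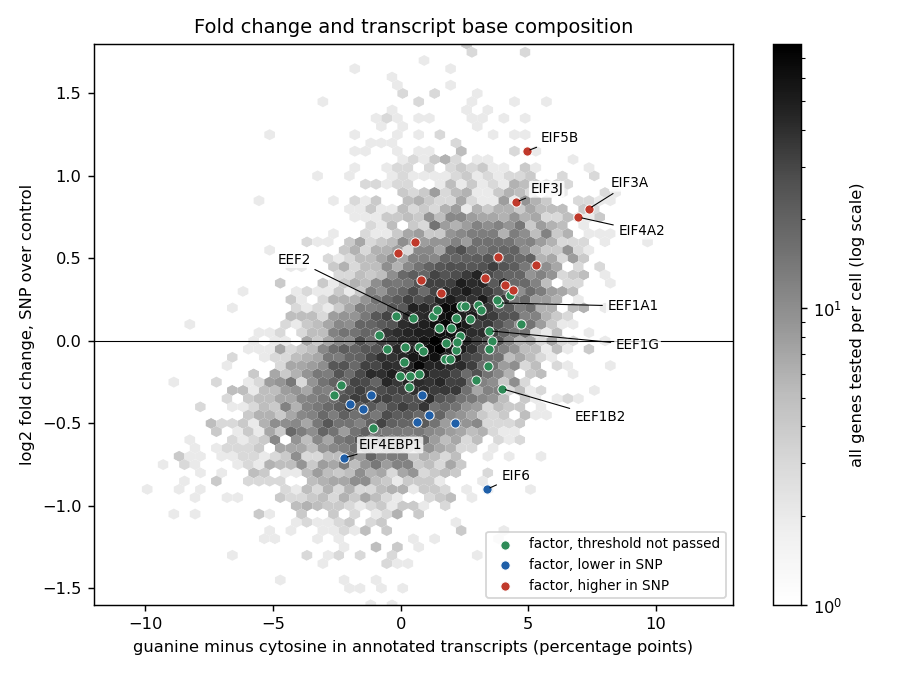
Log2 fold change of SNP over control against guanine minus cytosine in the annotated transcripts (percentage points) for the factor genes (coloured points) over all genes tested (grey cells, log colour scale). The factors rise to the right with the cloud of all genes (rho 0.560 and 0.480), with EIF6 near its lower edge and EIF5B near its upper edge.

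Offsets fitted on transcript length, GC content and guanine minus cytosine left 6 factors higher and 8 lower, while 8.33% of all genes were higher and 10.4% lower. Of the calls, 42.9% were higher among factors and 44.4% among all genes. EIF5B, EIF3J, EIF4H, EIF4G1, EIF4ENIF1 and EIF2S3 remained higher, with EIF5B at 0.68 and EIF3J at 0.47. EIF6, EIF4A1, EIF5A, EIF3I and EIF3G remained lower, at -1.0 for EIF6 and -0.62 for EIF4A1, and EEF1B2, EIF2AK2 and EEF1AKMT2 were newly lower. EIF3A, EIF3B and EIF4A2 no longer passed, at 0.15, 0.0032 and 0.091. Scaling by the read totals implied by RPKM left 11 higher and 4 lower, while 14.1% of all genes were higher and 8.25% lower. Of these calls, 73.3% were higher among factors and 63.1% among all genes, against 59.1% and 51.9% with TMM; the falls of EIF6, EIF4EBP1, EIF4A1 and EIF3I were kept.

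Partner genes outside the naming rule, from lists of other translation genes, gave 14 higher and 9 lower of 58 tested (39.7% called). Over all genes tested 26.2% were called, 13.6% higher and 12.6% lower. With offsets 18 of these partner genes were called, while 8.33% of all genes were higher and 10.4% lower. Helicases and mRNA-binding partners of initiation had 4 higher of 11 and none lower, among them DDX3X at 0.60 and DHX36 at 0.63, RNA helicases that unwind structured 5′ ends. The median guanine minus cytosine of this list, 4.06 points, lay in the highest band, where 28.4% of all genes were higher and 2.73% lower. PABPC1, the poly(A)-binding partner of EIF4G1, was not called at -0.15. Release and recycling factors had 2 of 6 higher, GSPT2 at 0.90 and ABCE1 at 0.31. Of 10 mitochondrial translation factors only MTRF1L was called, higher at 0.51, and the mitochondrial counterparts of eEF1A and eEF2, TUFM and GFM1, were not called at 0.25 and 0.20. Of the diphthamide enzymes, which modify eEF2, DPH1 and DPH2 fell by 0.86 and 0.50 and DPH7 rose by 0.46. Of the list on eIF2 alpha phosphatase and mTORC1, 3 of 14 were higher and 3 lower; MLST8, a subunit of mTORC1, fell by 0.77, and MTOR and RPTOR were not called at -0.14 and -0.27.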

How the data were processed

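Sequencing of 4 SH-SY5Y libraries was analysed, 2 control and 2 SNP, grouped by sample titles. The tables deposited by the authors give read counts per gene without normalization, TPM summing to 1000000 per library, and RPKM, per the file headers; RPKM implies read totals of 48.7 to 62.0 M. The build is GRCh38, per the submitters' processing notes; aligner, counter and annotation are not given in the sources used here. Positions, exons and composition came from GENCODE 29: 61 of 66 factor genes with RPKM had an implied length equal to the exon length within 1 base.

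Counts were tested with edgeR 4.0.16 in R 4.3.3 (filterByExpr with minimum count 10 and minimum total 15, TMM, quasi-likelihood, no covariate, Benjamini-Hochberg over 14759 genes). Standard errors came from the log2 fold change and F. TPM served for levels and ratios between genes, RPKM for read totals and lengths. Offsets were per-library lowess curves (span 0.5, 3 rounds). Alternatives were other filters, scalings, DESeq2 1.42.0, limma-voom (limma 3.58.1), a replicate block, offsets, a threshold of 0.01 and leaving out each library; the RPKM totals were added after seeing the data. The fit was tested on simulated data and recovered most changed genes. With a simulated base composition trend, most calls made without offsets fell on unchanged genes, and few did with offsets. That trend was built on a measure that the offsets fit, and the changed genes were drawn without regard to composition. The simulation therefore cannot say which calls in the real data are due to composition. The members and lists were chosen with earlier results of these data known. Named genes were the 4 contrasted factors, the eIF2 kinases, EIF4EBP1, EIF4EBP2, EEF2K and EEF1A2, then the 8 largest rises and 8 largest falls called without overlap at 5 CPM or more; any other member could be named. Some single genes of the comparison lists are not reported here.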

Additional observations from a re-analysis of the deposited data

How the results depend on the processing

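Of 25 named genes under 16 alternatives each, 339 values kept direction and side of the threshold, 35 lost the call, 14 gained one and 12 changed sign. Among these 25, signs changed for EEF1A1, EEF1G and 3 eIF2 kinase genes, none of them called; outside them, EIF2S1, called at 0.31, was -0.12 with offsets. With offsets EEF1A1 was -0.078, EEF1G -0.11, EIF2AK1 0.030 and EIF2AK3 -0.021; with offsets and the replicate block they were -0.072, -0.11, 0.029 and -0.020. Without 1 library EEF1G ranged from -0.066 (without control a) to 0.19, and EIF2AK1 from -0.093 to 0.024 (without SNP b). With RPKM totals EIF2AK1 was 0.035 and EIF2AK2 0.013. The 13 higher factors became 6 with offsets and 7 with offsets and the block, and 8 to 16 without 1 library. The 9 lower became 4 with RPKM totals and 5 to 10 without 1 library. The median of EEF1A1, EEF1B2, EEF1G and EEF2 became -0.10 with offsets and -0.092 with offsets and the block, and that of the other factors 0.072 with RPKM totals. Without 1 library the former ranged from -0.021 to 0.22 and the latter from -0.047 to 0.060. All genes called, 3861, became 2415 with DESeq2, 2224 at 0.01 and 2447 to 4144 without 1 library. The 23 other translation genes called became 14 at 0.01 and 15 to 27 without 1 library. The cause was not tested. The letters a and b share only a name: deviations of same-lettered libraries correlated at 0.060 across genes. With the replicate block 15 factors were higher and 12 lower, including all 22 called without it, and 4487 genes in all; EEF1A1 was then called higher and EEF1B2 lower.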
